A study of Mus musculus with 4 samples.

Results

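The CD4 cluster is 1 of 16 cell clusters that the authors named among CD45+ cells sorted from mouse melanomas. Its members are the cells given the name CD4 in the deposited cell table, which are 263 of 4108 cells, 253 from control tumors and 10 from glucocorticoid (GC) treated tumors. The naive-like genes of the cluster, and the Cd4, Cd8a or Cd8b1 and B cell transcripts that its cells hold, are described here beside the regulatory T cell cluster (Tregs, 486 control cells) and the CD8 1 cluster (517 control cells).

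Tumors of the melanoma line 20967 were implanted intradermally in wild-type C57BL/6 hosts. The line is a single one derived from an Nras+LSL-G12D;Tyr::CreERT2+/o animal, in which Cre under the tyrosinase promoter acts in melanocytes. The hosts carry none of these alleles and have a full immune system. Of 10 tumors, 5 received a control cream and 5 received the potent GC clobetasol propionate on the skin, and the ages of the mice are not given in the sources used here. Each tumor was marked with its own hashtag antibody, and the tumors are called control 1 to 5 and GC 1 to 5, where the numbers are only names. All control tumors were loaded in one 10x Genomics channel (17100 cells) and all GC tumors in another (3500 cells), so treatment and channel cannot be told apart.

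Naive T cells circulate between blood and lymphoid organs until they meet antigen. They hold the transcription factors TCF-1 (Tcf7) and LEF-1 (Lef1), which also act in CD4 and CD8 lineage choice in the thymus. They enter lymph nodes with the help of CCR7 and leave them through the sphingosine 1-phosphate receptor S1PR1, and they survive on interleukin 7 through its receptor (Il7r). Activation lowers most of these genes and raises effector genes such as granzymes and inhibitory receptors such as PD-1 (Pdcd1).

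The values are unique molecular identifiers (UMIs, a count of captured RNA molecules) per 10000 UMIs of a cell, averaged over the cells of a cluster in each tumor. Control tumors gave 56, 70, 71, 36 and 20 CD4 cluster cells. These held 1978938 UMIs, with medians of 7281 UMIs and 2573 genes per cell and 2.54% mitochondrial UMIs, against medians of 6169 UMIs and 1.27% in Tregs and 6342 UMIs and 2.22% in CD8 1. The 2 channels shared 0 cell barcodes.

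The name of the cluster was set against its markers first. Cd4, the coreceptor of helper T cells, was at 1.28, 1.25, 1.78, 1.19 and 1.80 UMIs per 10000 in the CD4 cluster of control 1 to 5 and at 1.16 ± 0.161 (SD, n = 5 tumors) in Tregs. The cells of CD8 1 held 0.166 ± 0.0744. A Cd4 UMI was found in 34.4% of CD4 cluster cells (87 of 253, exact binomial 95% interval 28.6 to 40.6), in 46.1% of Tregs, in 4.06% of CD8 1 cells, and in 0.277% of tumor-associated macrophages (TAMs). The TAMs should lack T cell transcripts and were deeper, with a median of 12883 UMIs. With every cell thinned to 2000 UMIs, which left out 6 shallower CD4 cluster cells, the shares with a Cd4 UMI were 18.2%, 20.6%, 2% and 0%. Foxp3, the defining factor of Tregs, was seen in 3.56% of CD4 cluster cells against 77.6% of Tregs and 1.52% of TAMs. The cells therefore hold Cd4 well above the background share, but most of them had no Cd4 UMI, and 24.5% held a UMI of the CD8 coreceptor genes Cd8a or Cd8b1. The 6 helper genes (Cd4, Zbtb7b, Cd40lg, Tnfsf8, Icos and Cd5) summed to 15.1 ± 1.42 UMIs per 10000 in the CD4 cluster. This was near the 14.6 ± 1.42 of CD8 1 and below the 28.4 ± 1.35 of Tregs. Icos alone made up 11.9 of the sum in CD8 1 and 23 in Tregs. Intervals on UMIs and cells cover counting error only.

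The naive-like markers of the cluster were compared next. The authors clustered the cells on these same values, so separate ranges of a marker describe the clusters and test nothing. The share of all genes with separate ranges between these clusters was not counted. Tcf7 was at 4.32, 5.56, 3.28, 6.79 and 4.09 UMIs per 10000 in control 1 to 5, at 0 to 0.153 in Tregs of the same tumors and at 0.757 to 1.11 in CD8 1. Its range in the CD4 cluster overlapped neither of the other clusters. A Tcf7 UMI was present in 81.8% of CD4 cluster cells (50.2% after thinning), 2.06% of Tregs (0.895%), 30.2% of CD8 1 cells (15%) and 0.692% of TAMs (0.141%).

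Lef1 was at 6.33, 6.96, 6.21, 8.50 and 4.83 UMIs per 10000 in the CD4 cluster, against 1.37 to 2.61 in Tregs and 1.07 to 1.48 in CD8 1. S1pr1 was at 3.26, 5.43, 3.70, 4.60 and 2.48, against 0.437 to 1.00 in Tregs and 0.597 to 1.03 in CD8 1. Both genes were higher in the CD4 cluster of every tumor than in either other cluster of any tumor.

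The other 2 markers showed the same order. Sidt1, which encodes a membrane protein of the SID1 family, was at 9.73, 6.52, 6.03, 9.37 and 3.69 UMIs per 10000 in the CD4 cluster, against 0.863 to 1.15 in Tregs and 1.11 to 2.17 in CD8 1. Aff3, a nuclear protein of the AF4/FMR2 family that is also expressed in B cells, was at 6.95, 6.90, 6.50, 8.25 and 8.33, against 0.0982 to 1.5 in Tregs and 0.634 to 0.704 in CD8 1. For both, the range of the CD4 cluster overlapped neither of the others.

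**Figure D1:**
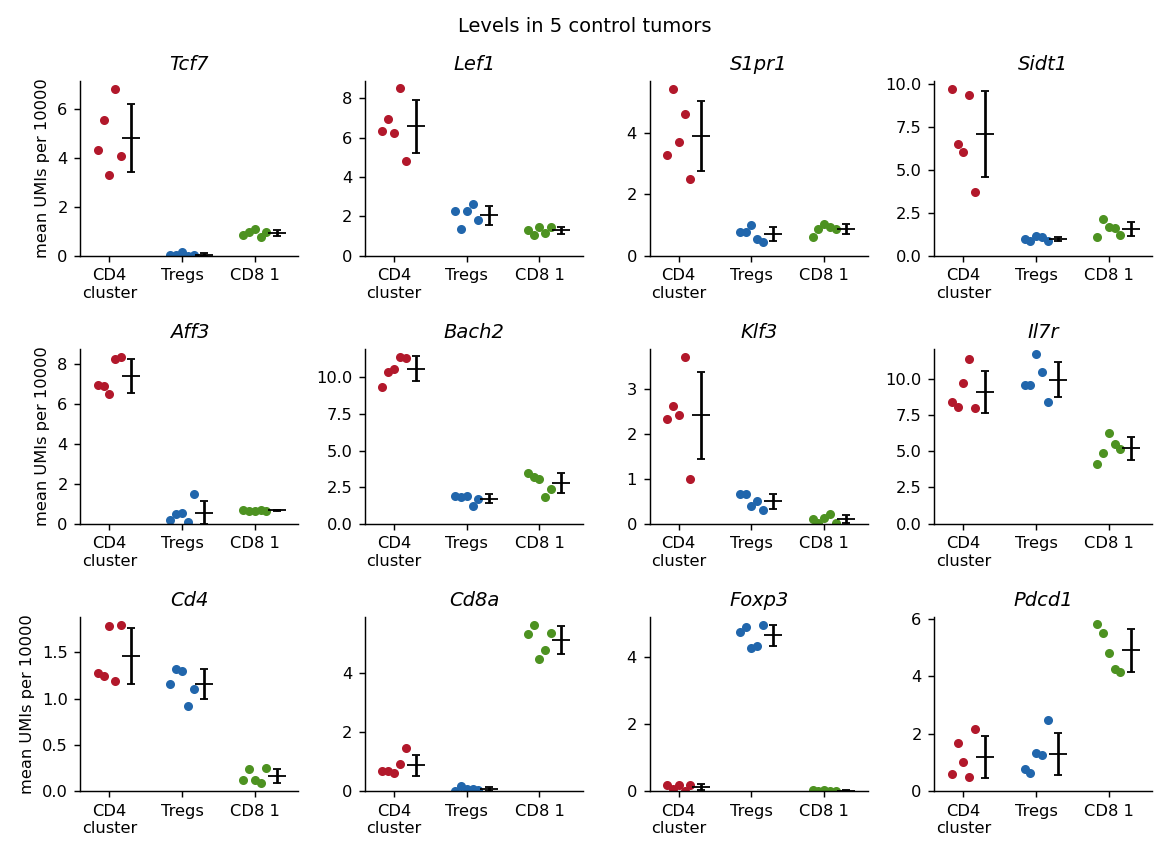
Mean UMIs per 10000 UMIs of marker genes in the CD4 cluster, Treg and CD8 1 cells of the 5 control tumors, 1 point per tumor with the mean and SD over tumors. Tcf7 lies between 3.28 and 6.79 in the CD4 cluster and at or below 0.153 in Tregs.

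The full naive and egress list had 17 members. Because the authors clustered the cells on these same values, a difference between clusters is given as a description with no test. A gene was counted where log2(mean + 0.5) differed by at least 1 on average and in the same direction in all 5 control tumors, among genes with a mean of at least 0.5 UMIs per 10000 over both clusters. On this log2 scale the added 0.5 understates the difference of low genes. Against Tregs 437 of 3686 genes (11.9%) passed, 177 higher in the CD4 cluster (4.80%) and 260 lower (7.05%). Against CD8 1 125 of 3710 genes (3.37%) passed, 54 higher (1.46%) and 71 lower (1.91%). These comparisons share the CD4 cluster cells. When the deposited log values were averaged in place of taking the log of the mean, the splits were 127 higher and 102 lower against Tregs and 17 higher and 49 lower against CD8 1.

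The list was chosen with earlier results of these data known and holds the markers Tcf7, Lef1, S1pr1, Sidt1 and Aff3. Its counts and medians are thus a description and no test of a naive program. Of the 17 naive and egress genes, 14 passed the filter on low values in each comparison. Against Tregs 8 were higher and 0 lower, with a median difference of 1.47 where that of all genes compared was −0.00. Against CD8 1 13 were higher and 0 lower, with a median of 1.77 where that of all genes was −0.02. The 3 members below the filter were Dapl1, Igfbp4 and Actn1, at 0.0848, 0.185 and 0.533 UMIs per 10000 in the CD4 cluster.

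Regulators of quiescence on this list were higher in the CD4 cluster than in both other clusters. Bach2, a repressor that restrains effector differentiation, was at 9.32 to 11.4 UMIs per 10000 in the CD4 cluster, 1.18 to 1.92 in Tregs and 1.80 to 3.45 in CD8 1. Foxp1, a factor known for holding naive T cells at rest, was at 14.1 ± 2.36 in the CD4 cluster, 4.57 ± 0.507 in Tregs and 5.26 ± 0.984 in CD8 1. Klf3 was at 2.41 ± 0.966, 0.497 ± 0.161 and 0.101 ± 0.0842, with control 5 lowest of the CD4 cluster values at 1.00. This held for all 3 genes in every tumor.

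The homing receptor gene Ccr7 passed the size limit against CD8 1 and not against Tregs. It was at 1.39 ± 0.454 UMIs per 10000 in the CD4 cluster, 0.92 ± 0.314 in Tregs and 0.133 ± 0.0833 in CD8 1, with log2 differences of 0.41 ± 0.59 and 1.55 ± 0.49 (SD over 5 tumors). Il7r was at 9.11 ± 1.45, 9.95 ± 1.23 and 5.19 ± 0.768, and passed the size limit in neither comparison. Klf2, a factor that drives S1pr1, differed by 0.39 ± 0.44 from Tregs and by 1.10 ± 0.44 from CD8 1.

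Most effector and inhibitory genes that passed the filter were lower in the CD4 cluster than in CD8 1. Of 15 members of the effector and exhaustion list, 1 was higher and 6 were lower against Tregs among 10 that passed the filter, and 0 were higher and 10 lower against CD8 1 among 13. Gzmb, a granzyme of killer cells, was at 0.654 ± 0.20 UMIs per 10000 in the CD4 cluster, 7.41 ± 1.88 in Tregs and 4.2 ± 1.14 in CD8 1. Pdcd1 was at 1.20 ± 0.725, 1.30 ± 0.734 and 4.90 ± 0.74. Havcr2, which encodes the inhibitory receptor TIM-3, was at 0.0715 ± 0.0895 in the CD4 cluster, 2.26 ± 0.878 in Tregs and 2.75 ± 0.774 in CD8 1. Others did not follow. Cxcr6, a chemokine receptor gene, was the 1 higher member against Tregs, at 1.8 ± 0.339 against 0.556 ± 0.0987, with 8.85 ± 0.664 in CD8 1. Tox, a factor of exhausted T cells, was at 4.34 ± 1.39 in the CD4 cluster, 12.8 ± 1.35 in Tregs and 2.46 ± 0.323 in CD8 1, and Nr4a2 at 1.52 ± 0.474, 1.58 and 1.5. The 9 cell cycle genes summed to 0.602 ± 0.211 in the CD4 cluster, and 0 of them passed the filter in either comparison.

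Of the genes with the largest difference from Tregs, Bcl2, the survival factor that blocks apoptosis, led the higher side. It was at 15.4 ± 1.93 UMIs per 10000 in the CD4 cluster and 0.35 ± 0.113 in Tregs, a log2 difference of 4.22 ± 0.31. The other 9 on that side were Pde3b (3.71), Ly6c2 (3.42), Atp8b4 (3.36), Fgf13 (3.27), Tcf7 (3.24), Aff3 (3.03), Gm2682 (2.61), Mctp2 (2.54) and Parp8 (2.50). On the lower side were genes of the Treg identity. Il2ra, the high-affinity interleukin 2 receptor chain, was at 0.431 ± 0.18 against 25.6 ± 2.31, a log2 difference of −4.83 ± 0.40. Itgav and Itgb8, whose integrin activates TGF-β, differed by −4.25 ± 0.34 and −4.31 ± 0.03, and Frmd5 by −4.37 ± 0.27. The remaining ones were Areg (−3.91), Tnfrsf9 (−3.34), Arl5a (−3.14), Nckap5 (−3.10), Neb (−3.09) and Foxp3 (−3.03). Of the 15 genes of the Treg list, 13 passed the filter, of which 0 were higher and 12 lower in the CD4 cluster.

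Against CD8 1 the largest difference was in Itga4, the integrin α4 chain used in homing, at 5.04 ± 1.01 UMIs per 10000 in the CD4 cluster and 0.193 ± 0.133 in CD8 1 (log2 difference 3.00 ± 0.43). It was followed by Aff3 (2.76), the adenosine kinase gene Adk (2.40), Klf3 (2.21), Ebf1 (2.19), Bank1 (2.17), Ighm (2.15), Ramp3 (2.01) and 1700025G04Rik (1.97). Ebf1, Bank1 and Ighm are B cell genes and are taken up below with the cells that hold them. The lower side held the chemokine Ccl4 (0.631 ± 0.579 against 10.8 ± 4.28, −3.35 ± 0.56), the interferon-induced gene Ifitm1 (−3.62) and Gm36723 (−3.83), an uncharacterized gene that overlaps a gene on the other strand. The others were Klrc1 (−2.56), Csf1 (−2.54), Havcr2 (−2.49), the αE integrin gene Itgae of tissue-resident cells (−2.42), Sema6d (−2.28), Cd8b1 (−2.21) and Lgals3 (−2.08).

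The promoters of the naive and egress genes were read because TCF-1 and LEF-1, whose genes mark the cluster, share a DNA motif with the core CTTTGA. In the RefSeq promoter sequences (GRCm38.p6), cut to the 250 bases before a start, 14 of the 17 list genes had an entry, and 4 of these (28.6%) held the core on either strand, against 4280 of 27025 genes (15.8%). A gene was counted if the window of any of its starts held the core, so a gene with more starts had more windows. Starts per gene were not matched between the list and all genes. The 4 genes with the core were Lef1, Bach2, Foxp1 and Txk. Those of Lef1, a marker of the cluster, and Bach2 are printed as examples, 5′ to 3′ on the gene's strand with the core in capitals, where TCAAAG is its reverse complement. Lef1 (chr3:131156044-131156293, plus strand) held it at 2 places and Bach2 (chr4:32417185-32417434, plus strand) at 1. Both windows precede starts inside the annotated genes, 45823 bases downstream of the first base of Lef1 and 178631 of Bach2. Of the 4 Lef1 starts with an entry, only this 1 held the core, and Bach2 had 1 entry.
Lef1: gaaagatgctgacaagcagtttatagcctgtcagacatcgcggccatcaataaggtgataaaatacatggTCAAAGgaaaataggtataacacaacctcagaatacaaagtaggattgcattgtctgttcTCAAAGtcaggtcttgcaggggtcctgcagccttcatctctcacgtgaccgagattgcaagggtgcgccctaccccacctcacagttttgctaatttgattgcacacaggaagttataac
Bach2: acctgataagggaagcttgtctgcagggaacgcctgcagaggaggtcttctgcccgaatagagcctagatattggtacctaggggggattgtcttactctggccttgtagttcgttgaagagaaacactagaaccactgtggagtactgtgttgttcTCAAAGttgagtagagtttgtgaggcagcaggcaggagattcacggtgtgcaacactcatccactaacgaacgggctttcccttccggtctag
A match of these letters describes the sequence and is not evidence of binding.

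The cells of the cluster were then sorted by the lineage transcripts they held. A cell with at least 3 UMIs over 13 B-lineage genes was set apart, and the others were called Cd4-only, Cd8-only (Cd8a or Cd8b1), both or neither by the presence of at least 1 UMI. Of the 253 control cells, 78 were Cd4-only (30.8%, 95% interval 25.2 to 36.9), 45 Cd8-only (17.8%, 13.3 to 23.1), 5 both (1.98%, 0.645 to 4.55), 84 neither (33.2%, 27.4 to 39.4) and 41 had B-lineage UMIs (16.2%, 11.9 to 21.3). The Cd4-only share was 28.6%, 28.6%, 33.8%, 33.3% and 30.0% in control 1 to 5. The Cd8-only share was 23.2%, 15.7%, 14.1%, 13.9% and 30.0%. Between tumors the SD was 2.55 percentage points for the first and 7.06 for the second.

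**Figure D2:**
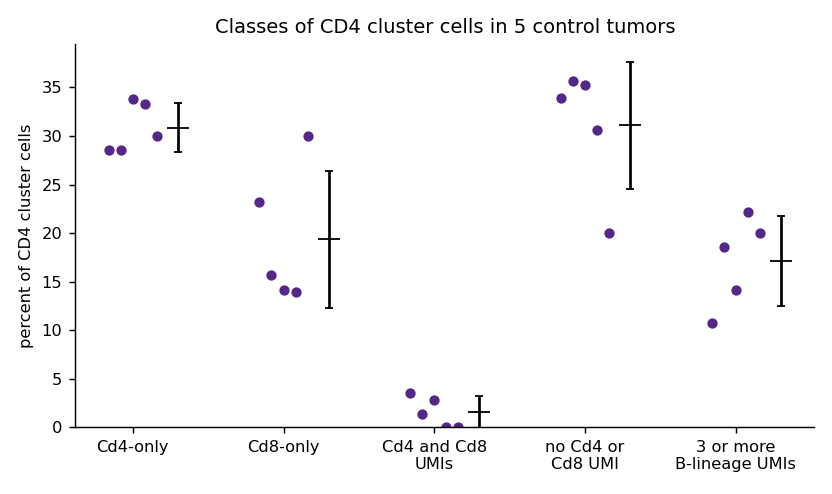
Share of CD4 cluster cells, in percent, in each class of lineage UMIs in each control tumor. The Cd4-only share lies between 28.6% and 33.8% and the Cd8-only share between 13.9% and 30.0%.

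Coreceptor UMIs per Cd8-only cell were near those of CD8 1 cells, though the Cd8-only cells were deeper. A Cd8-only cell had a median of 6 Cd8a and Cd8b1 UMIs (highest 34), and 41 of 45 (91.1%) had at least 2. The 464 CD8 1 cells with any such UMI had a median of 7, and 92.9% had at least 2. Of the 723 control TAMs, 42 (5.81%) held a Cd8a or Cd8b1 UMI, with a median of 1, and 1 of these 42 (2.38%) had 2. The TAM share, at a higher depth, was taken as a background of free RNA and stray reads. The share of CD4 cluster cells with a Cd8a or Cd8b1 UMI was 24.5% before and 14.2% after thinning. It was 5.81% and 1.41% in TAMs and 8.85% and 3.36% in Tregs. Cd4 was sparser, with a median of 2 UMIs per Cd4-only cell (highest 11, 65.4% with at least 2) and 1 per Cd4-positive Treg. Neither cells, with a median of 6288 UMIs, were about as deep as Cd4-only cells (6386) and shallower than Cd8-only cells (9550). At similar median depths, 89.7% of CD8 1 cells (6342 UMIs) held a Cd8a or Cd8b1 UMI. A Cd4 UMI was held by 46.1% of Tregs (6169 UMIs). How many neither cells had a missed Cd4 or Cd8 transcript was not tested.

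The B-lineage class was made of 2 unlike sets of cells. Over 11 B genes without the immunoglobulin genes Ighm and Ighd, 10 control cells held 42 to 171 UMIs each, and the other 253 cells of the cluster held at most 3, with 240 at 0. Of these 10 cells, 9 held 0 UMIs of the 11 pan T genes, and all 10 had 0 Tcf7 UMIs and at least 1 Aff3 UMI. Of the marker genes otherwise, 2 of the 10 held Lef1 and 5 held S1pr1. The remaining cell, in control 2, held 82 B and 38 pan T UMIs. The 10 cells came from all control tumors (2, 3, 1, 1 and 3), and their median depth was 4870.5 UMIs. The other 253 cells of the cluster, GC cells included, held at least 4 pan T UMIs each, with a median of 37.

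The second set rested on Ighm, which encodes the heavy chain of IgM. Of the 44 cells of the cluster with 3 or more UMIs of the 13 genes (3 from GC tumors), 29 held 0 UMIs of the other 11, and 28 of those held Ighm. An Ighm UMI was found in 36.8% of CD4 cluster cells but also in 45.3% of Tregs, 14.2% of neutrophils, 5.39% of TAMs and 2.90% of CD8 1 cells. In Tregs, a T cell cluster whose B-lineage list summed to 1.96 UMIs per 10000, Ighm was at 1.70 ± 0.422, against 2.06 ± 0.969 in the CD4 cluster. An Ighm UMI was thus no rarer in Tregs than in the CD4 cluster. Counted over the 11 genes, the control cells were 81 Cd4-only, 56 Cd8-only, 5 both, 100 neither and 11 with B-lineage UMIs, a split set after the data were seen.

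**Figure D3:**
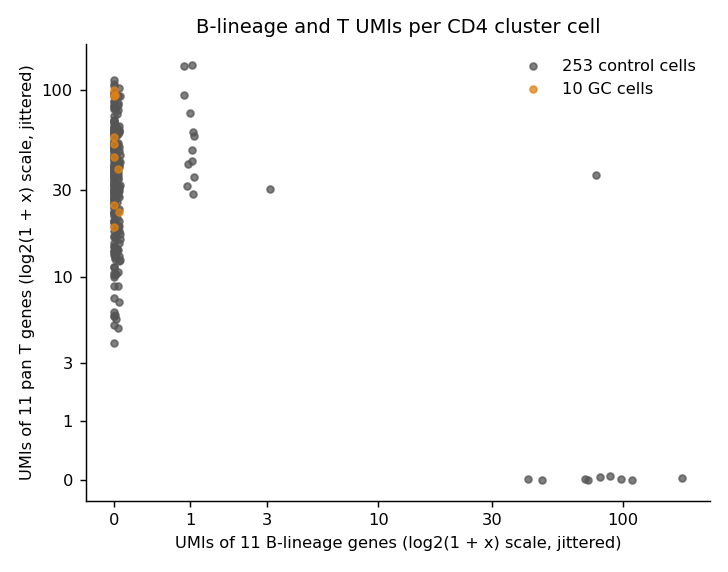
UMIs of the 11 B-lineage genes against UMIs of the 11 pan T genes in each CD4 cluster cell, 1 point per cell. There are 10 cells with 42 to 171 B-lineage UMIs, of which 9 hold 0 pan T UMIs, and the other cells hold at most 3 B-lineage UMIs.

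The B cell genes of the cluster fell when the cells that hold them were left out. Ebf1 and Bank1 are among the 13 B-lineage genes that helped choose those cells, so their fall was set by the choice. Ebf1, a master factor of B cells, was at 2.14 ± 1.45 UMIs per 10000 in the CD4 cluster and 0.00494 ± 0.00678 in Tregs, a log2 difference of 2.20 ± 0.87 that became 0.00 when cells with a Cd8a or Cd8b1 UMI or at least 3 B-lineage UMIs (13 genes) were left out. For Bank1, a scaffold of B cell receptor signaling, the difference from Tregs changed from 2.14 to −0.03. Aff3 stayed high, with 3.03 against Tregs in all cells and 2.81 without those cells, and so did Tcf7 (3.24 and 3.23), Lef1 (1.46 and 1.41), S1pr1 (1.84 and 2.05) and Sidt1 (2.28 and 1.97). In control 5, which had 20 cells of which 3 were in the B set, the B-lineage list summed to 25.7 UMIs per 10000 against 3.49 to 9.82 in the other control tumors.

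Markers of other cell types were summed by list. The 10 natural killer and innate lymphoid genes summed to 6.13 ± 1.72 UMIs per 10000 in the CD4 cluster, 12.4 in Tregs and 12 in CD8 1. Id2, which T cells also express, made up 3.29, 6.3 and 11.7 of these sums, and Il1rl1, the IL-33 receptor gene, 0.501, 5.81 and 0.052. Other members were higher in the CD4 cluster, with Klra7 at 1.16 against 0.00716 and 0.0214, Klrb1c, the NK1.1 gene, at 0.682 ± 0.287 against 0.057 and 0.108, and Zbtb16, which encodes PLZF, at 0.144 against 0 and 0.0144. The 6 plasmacytoid dendritic genes summed to 6.32 ± 0.773, 10.6 and 18.9, with 1 of them, Siglech, at 0 in the CD4 cluster. Runx2 alone was at 6.45 in Cd4-only and 4.5 in Cd8-only cells of the cluster, so the sum there rests mostly on this gene. The 11 myeloid genes summed to 8.22 ± 5.89, against 4.87 and 3.55, with control 5 at 18.7 and the other tumors at 4.91 to 6.92. The 6 melanoma genes summed to 0.0885 ± 0.0536, with 4 of the 6 at 0. In control 5, Cd74 and H2-Aa, class II genes that B cells also express, made up 15.2 of the 18.7. Without the 10 cells holding 10 or more UMIs of 11 B genes, left out after the data were seen, the myeloid sum was 4.73 in control 5 and 3.36 to 4.84 in the other tumors.

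The next question was how Cd4-only and Cd8-only cells of the cluster differ beyond the genes that chose them. Both classes came from the same 5 tumors, and limma with the tumor as a block was fitted to log2(mean + 0.5) over 3631 genes, without Cd4, Cd8a and Cd8b1. At a Benjamini-Hochberg adjusted p under 0.05, 226 genes were called (6.22%), 129 higher in Cd4-only cells (3.55%) and 97 higher in Cd8-only cells (2.67%). The 5 values of the classes did not overlap in 230 genes (6.33%). Genes needed a mean of at least 0.5 UMIs per 10000 over both classes, so a gene could pass through the class where it is high. Counts and medians of gene lists in this comparison are thus a description. When deposited log values were averaged instead, 89 were higher in Cd4-only and 169 in Cd8-only cells. The Cd8-only cells were deeper in every tumor (medians of 8751 to 12226 UMIs against 4804 to 8085), and with every cell thinned to 2000 UMIs, which left 4 tumors, 69 genes were called, 48 and 21. The count fell to 61 without control 1, 77 without control 2 and 111 without control 4.

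The naive factors Tcf7, Lef1, Bach2 and Aff3 were not called between the 2 classes. Tcf7 was at 3.94, 6.32, 3.11, 7.63 and 3.38 UMIs per 10000 in Cd4-only cells of control 1 to 5 and at 4.35, 5.76, 5.63, 8.14 and 4.08 in Cd8-only cells. The ranges overlapped, and the log2 difference of −0.22 ± 0.22 (SE) was not called (adjusted p = 0.662 by limma). Lef1 differed by −0.43 ± 0.24 (adjusted p = 0.364 by limma), Bach2 by 0.01 ± 0.28 and Aff3 by −0.24 ± 0.21. Each class was set against its neighbor cluster too. In Cd4-only cells Tcf7 was 3.22 above Tregs on the log2 scale, Bach2 1.69, S1pr1 2.44 and Lef1 1.04. Not every tumor followed: Bach2 was at 1.07 UMIs per 10000 in Cd4-only cells of control 5, below each Treg value. Foxp1 was lower in Cd4-only cells than in Tregs of control 1 (3.82 against 4.78) and control 5 (1.66 against 4.57). Sidt1 was at a mean of 3.2 in Cd4-only cells and 0.99 in Tregs. In Cd8-only cells Tcf7 was 2.06 above CD8 1, Lef1 1.96, Sidt1 2.01, Klf3 1.98 and Bach2 1.12. S1pr1 was at a mean of 2.81 in Cd8-only cells and 0.862 in CD8 1. Ccr7, also not called between the classes, was at 0.98 ± 0.725 UMIs per 10000 in Cd4-only cells, near the 0.92 ± 0.314 of Tregs. In Cd8-only cells it was at 1.25 ± 0.769.

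Other genes of the naive and egress list did separate them. Of the 15 tested, 2 were called higher in Cd4-only and 3 in Cd8-only cells, with a median difference of −0.32 where that of all genes tested was 0.02. S1pr1 was at 4.31, 8.22, 5.61, 7 and 5.45 UMIs per 10000 in Cd4-only cells and at 2.6, 2.15, 3.57, 4.47 and 1.24 in Cd8-only cells, higher in Cd4-only cells of 5 of 5 tumors (log2 difference 1.06 ± 0.26, adjusted p = 0.019 by limma). Il7r was at 11.5 to 14.5 in Cd4-only and 4.14 to 10.6 in Cd8-only cells (0.92 ± 0.21). On the other side, Sidt1 was at 1.06 to 4.97 against 4.88 to 13.4 (−1.27 ± 0.28, adjusted p = 0.00999 by limma), and Foxp1 differed by −1.18 ± 0.28. Without control 1 none of these 4 calls was kept. S1pr1 and Il7r were also not called without control 2, Sidt1 and Foxp1 without control 4, and S1pr1 and Foxp1 after thinning.

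Of the 6 helper genes 4 were tested, and 3 were called, all higher in Cd4-only than in Cd8-only cells. Of all genes tested, 3.55% were called on that side. Cd40lg, at a mean of 0.235 UMIs per 10000 in Cd8-only cells, passed the filter only through the Cd4-only cells. Icos, the inducible costimulator, was at 17.2, 18.8, 16.7, 12.3 and 27.0 UMIs per 10000 in Cd4-only cells and at 3.24, 7.73, 6.21, 4.83 and 5.53 in Cd8-only cells. The ranges did not overlap, and the log2 difference was 1.66 ± 0.22 (adjusted p = 0.000151 by limma). Cd40lg, the ligand by which helper cells license B cells and dendritic cells, was at 1.17 to 2.89 against 0 to 0.764 (1.77 ± 0.29, adjusted p = 0.000816 by limma). Cd5 differed by 1.32 ± 0.27, and Tnfsf8 by 1.21 ± 0.37 without being called (adjusted p = 0.0568 by limma). Zbtb7b, which encodes the helper lineage factor ThPOK, was below the filter and not tested, at 0.177 against 0.159. Outside the cluster, Icos was at 23 ± 1.07 in Tregs and 11.9 ± 1.35 in CD8 1, and Cd40lg at 0.0991 and 0.924.

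The 10 largest differences toward Cd4-only cells included 2 transcription factors. Maf, known from helper and regulatory T cells, was at 6.06, 2.63, 3.46, 3.53 and 7.44 UMIs per 10000 in Cd4-only cells and 0.461, 0, 2.34, 0 and 0.138 in Cd8-only cells (2.51 ± 0.36, adjusted p = 0.000266 by limma). Rora, an orphan nuclear receptor of helper and innate lymphoid cells, was at 11.0 to 16.8 against 1.15 to 5.43 (2.12 ± 0.25, adjusted p = 4.78e-05 by limma). Both were higher in Cd4-only cells of 5 of 5 tumors with no overlap of the ranges. The others were the carboxypeptidase gene Cpm (2.66), the sialyltransferase genes St6galnac3 (2.63) and St6gal1 (2.13), Tnfsf11 (2.35), which encodes RANKL, the GTPase regulator Arhgap31 (2.31), the receptor modifier Ramp3 (2.14), the polarity gene Pard3 (2.07) and the T cell receptor adaptor Trat1 (1.93). St6galnac3 overlaps other genes on its own strand, so its reads may not all be its own. Ramp3 was not called without control 1, 2 or 3, and Cd5 not without control 1. With a pseudocount of 0.1, Ramp3 and Trat1 were not called. Trat1 was also not called by edgeR or DESeq2 on summed UMIs, nor Pard3 after thinning.

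Among called genes of the other lists on this side were Nr3c1, the GC receptor, at 9.36 to 22.3 UMIs per 10000 in Cd4-only and 4.17 to 7.65 in Cd8-only cells. Its log2 difference was 1.50 ± 0.22 (adjusted p = 0.000398 by limma). Of 15 Treg genes 7 were tested, and 3 were called higher in Cd4-only cells, namely Tnfrsf4 (1.65 ± 0.36), Tnfrsf9 (1.41 ± 0.41) and Nrp1 (1.28 ± 0.33). These encode the costimulatory receptors OX40 and 4-1BB and neuropilin 1, and are also expressed outside Tregs. Tnfrsf4 was not called without control 1, 2 or 3, Tnfrsf9 without control 1, 2, 3 or 4, and Nrp1 without control 1, 2 or 5. The plasmacytoid list gave 1 call of 3 tested, the E protein gene Tcf4 (1.43 ± 0.35, not called without control 1, 2 or 4), and the GC response list 1 of 5, Nr3c1 itself.

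Genes of the CD8 lineage were higher in Cd8-only cells. Of 15 CD8 genes 7 were tested, and 6 were called, all higher in Cd8-only cells (median −1.97). Of all genes tested, 2.67% were called on that side. Nkg7 and Klrd1, at means of 0.404 and 0.337 UMIs per 10000 in Cd4-only cells, passed the filter only through the Cd8-only cells. The count and median of the list are thus no test of a CD8 lineage side. The largest difference of all was in Ly6c2, which encodes the surface protein Ly-6C of memory CD8 T cells and monocytes, at 0.0952, 0.109, 0.903, 0.0494 and 0 UMIs per 10000 in Cd4-only cells and 11.6, 12.7, 4.65, 12.3 and 14.3 in Cd8-only cells (−4.02 ± 0.35, adjusted p = 1.44e-06 by limma). Klrd1, the CD94 chain of the NKG2 receptors, was at 0 to 0.583 against 2.35 to 4.15 (−2.18 ± 0.27), and Nkg7, a protein of cytotoxic granules, at 0 to 0.801 against 2.66 to 6.48 (−2.33 ± 0.31). In CD8 1, Nkg7 was at 6.95, against a mean of 4.02 in Cd8-only cells. For these 3 genes each Cd8-only value lay above each Cd4-only value. Ly6c2 has a near-identical neighbor, Ly6c1, and the counting could split reads between them.

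Further CD8 genes were called on the same side. The cysteine protease gene Ctsw differed by −1.97 ± 0.32, Runx3, the factor that sets the CD8 lineage, by −1.31 ± 0.24 (1.53 to 3.09 against 5.44 to 6.48 UMIs per 10000), the NKG2D gene Klrk1 by −1.24 ± 0.32, and Tbx21, which encodes T-bet, by −1.22 ± 0.32. Klrk1 was not called without control 2, 4 or 5, nor Tbx21 without control 1, 2 or 4. After thinning, the calls of Ctsw, Runx3, Klrk1, Klra7 and Cd5 were lost. The chemokine gene Ccl5 differed by −2.18 ± 0.36, in 4 of 5 tumors, with control 3 at 6.83 in Cd4-only and 6.30 in Cd8-only cells. The other named genes were Fgf13 (−2.32), the glucosylceramide synthase gene Ugcg (−2.15), the flippase gene Atp8b4 (−2.14), Fam241a (−2.05), Gm44174 (−2.53) and Airn (−2.17). Airn is antisense to Igf2r and Gm44174 overlaps a gene on the other strand. The strand used in counting is not given in the sources used here, so these 2 are uncertain. Both calls were also lost after thinning. Gm44174 (chr6:71353035-71373284, GRCm38) also ends 142 bases before Cd8a on the same strand, and Cd8a helped choose the classes.

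The Treg list gave its only call toward Cd8-only cells in Ikzf2, which encodes Helios, a factor known from Tregs. It was at 3.10, 4.86, 1.57, 1.39 and 2.09 UMIs per 10000 in Cd4-only cells and at 7.80, 7.71, 13.1, 12.8 and 13.6 in Cd8-only cells (−1.96 ± 0.29, adjusted p = 0.000398 by limma). Klra7, a Ly49 receptor gene from a family of close copies, was at 0 in Cd4-only cells of all 5 tumors and at 1.41 ± 0.626 in Cd8-only cells (adjusted p = 0.00146 by limma). A Klra7 UMI was seen in 16.6% of CD4 cluster cells, 0.412% of Tregs and 1.16% of CD8 1 cells. Of the effector and exhaustion list 1 of 6 tested genes was called, Nr4a2 (−1.03 ± 0.29, adjusted p = 0.042 by limma), and that call was lost without control 1, 2, 3 or 5 and after thinning. Gzmb (−0.50 ± 0.30, adjusted p = 0.395) and Fasl (−0.08 ± 0.35, adjusted p = 0.935), both genes of killing, were not called by limma. Of the helper subset list 1 of 3 was called, Tbx21, and of the 11 pan T genes 0 were called (median −0.22; 679 of all 3631 genes had an unadjusted p under 0.05).

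**Figure D4:**
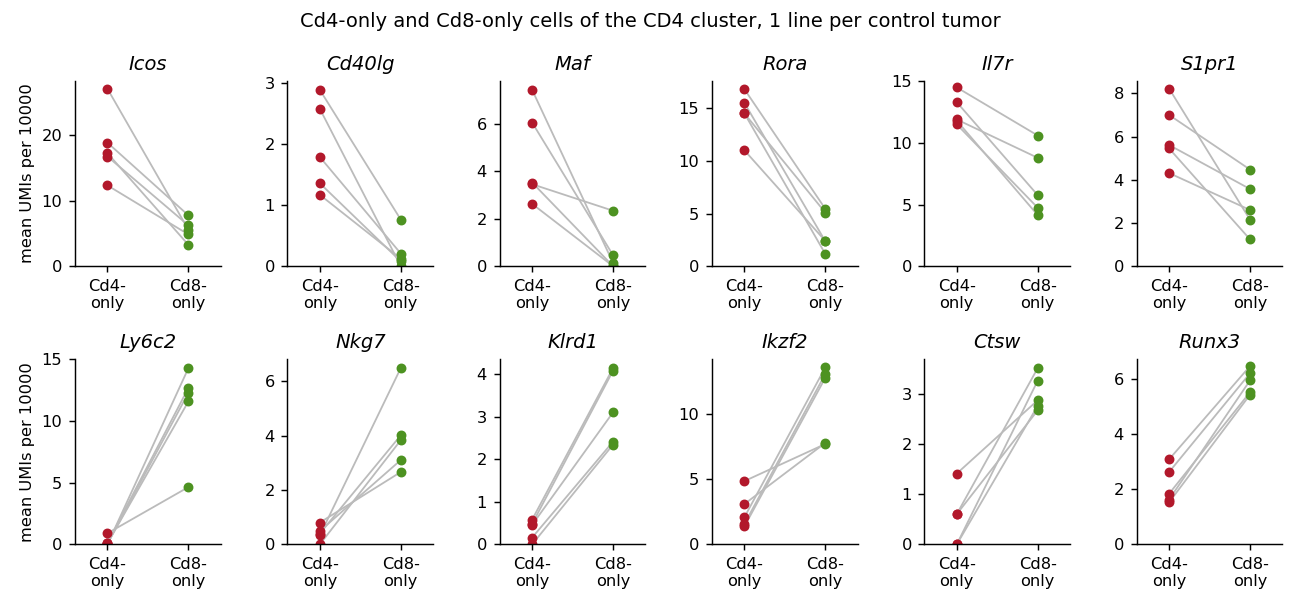
Mean UMIs per 10000 UMIs in Cd4-only and Cd8-only cells of the CD4 cluster for 12 genes, with a line for each of the 5 control tumors. Icos, Cd40lg, Maf, Rora, Il7r and S1pr1 are higher in Cd4-only cells of every tumor, and Ly6c2, Nkg7, Klrd1, Ikzf2, Ctsw and Runx3 in Cd8-only cells of every tumor.

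This mixture touched the comparison of the whole cluster with Tregs. Ly6c2 was 3.42 above Tregs on the log2 scale over all CD4 cluster cells and 0.08 over Cd4-only cells. Klrd1 went from 2.39 to 0.42, Nkg7 from 1.78 to 0.18, Ccl5 from 2.21 to 0.43 and Foxp1 from 1.52 to 0.39, and Ctsw turned from 1.09 to −0.32. Bcl2 stayed at 3.38 of 4.22 and Aff3 at 2.62 of 3.03. Of the 8 CD8 lineage genes that passed the filter in the comparison of the whole cluster with Tregs, 7 were higher in the CD4 cluster and 1 was lower.

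The 84 neither cells were placed by how many of the 10 named genes of each side they held a UMI of. In 47 of them (56.0%, 44.7 to 66.8) more genes of the Cd8-only side were present, in 29 (34.5%, 24.5 to 45.7) more of the Cd4-only side, and in 8 (9.52%) as many of each. After thinning the shares were 60.5%, 33.3% and 6.17%. The Cd8-side share was 78.9%, 36.0%, 60.0%, 36.4% and 100% in control 1 to 5 (62.3% ± 27.7), the last of 4 cells, and the Cd4-side share 21.1%, 48%, 28%, 54.5% and 0%. In control 2 and 4 the Cd4 side was thus the larger. By the same count, with which these genes were chosen, 91.0% of Cd4-only cells and 88.9% of Cd8-only cells fell on their own side. Of cells outside that choice, all 5 with both coreceptors fell on the Cd4-only side, and 31 of the 41 with B-lineage UMIs on the Cd8-only side. These 41 were not all B cells. Counted over the 11 B genes, Cd8-only cells were 56 in place of 45 and Cd4-only cells 81 in place of 78, so some of the 41 held a coreceptor UMI.

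The levels of neither cells did not follow 1 side for all genes. Klrd1 was at 4.27 ± 2.39 UMIs per 10000, Ikzf2 at 20 ± 7.14, Tbx21 at 3.44 ± 0.865 and Klra7 at 1.69 ± 1.28, which are as high as or above the means of 3.23, 11.0, 1.44 and 1.41 in Cd8-only cells. Ly6c2 was at 8.33, 2.19, 12.1, 4.88 and 16.1 in control 1 to 5. St6galnac3 was at 11.6 ± 3.19, near the 15.4 ± 7.34 of Cd4-only cells. Gm44174, 1 of the 10 Cd8-side genes, was at 0.086 ± 0.142, against 2.41 ± 0.463 in Cd8-only cells, but it lies next to Cd8a, and neither cells were chosen to hold no Cd8a UMI. S1pr1 was at 2.90 ± 1.74, near its Cd8-only mean of 2.81 ± 1.25. Tcf7 was at 4.94 ± 2.23, within the spread of both classes. These comparisons were not tested.

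**Figure D5:**
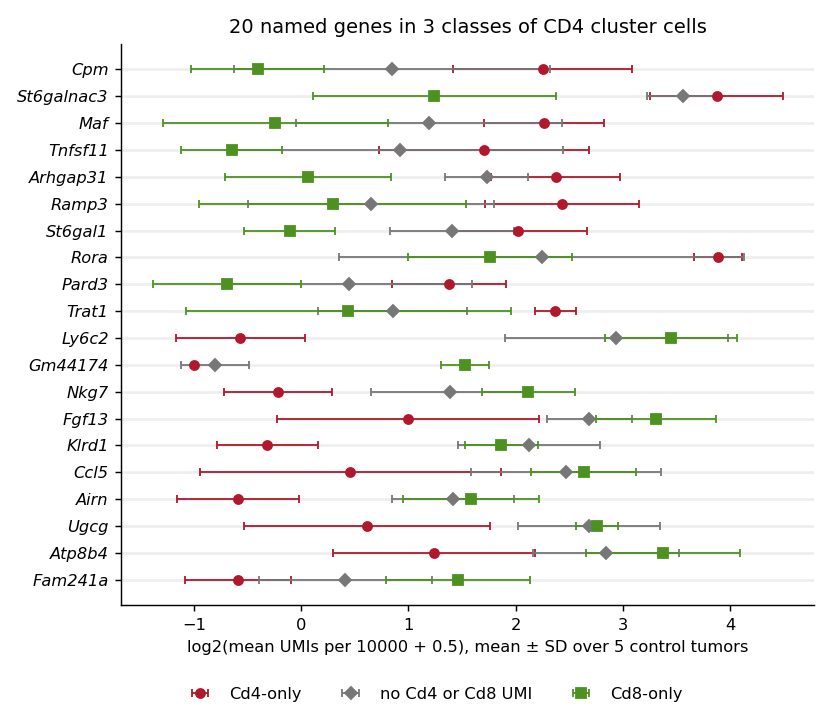
The 20 genes named in the test of Cd4-only against Cd8-only cells, as log2 of mean UMIs per 10000 plus 0.5, mean and SD over 5 control tumors, in Cd4-only, neither and Cd8-only cells. Neither cells lie near the Cd8-only cells for genes such as Klrd1 and Ugcg, near the Cd4-only cells for Gm44174, a neighbor of Cd8a, and between the classes for most others.

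The genes of ribosomal proteins, a group chosen after its values were seen, also separated the classes. Of 78 tested, 30 were called higher in Cd8-only cells and 0 in Cd4-only cells, and all 78 differences were negative (median −0.62). They took 9.40%, 9.39%, 9.18%, 11.0% and 5.83% of UMIs in Cd4-only cells of control 1 to 5 and 14.9%, 12.5%, 13.5%, 13.5% and 14.7% in Cd8-only cells. The ranges did not overlap. Tregs were at 4.23% ± 0.213 and CD8 1 at 9.78% ± 0.492. Between 2 and 47 of the genes were called over the alternatives, with 2 without control 1 and 3 of 79 after thinning, and 0 were called toward Cd4-only cells in any.

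The cluster was then compared between treatments. It made up 7.04%, 8.34%, 5.68%, 6.30% and 5.76% of the cells of control 1 to 5 and 5.56%, 1.33%, 5.41%, 4.55% and 1.27% of those of GC 1 to 5. Each GC value rests on 1, 1, 6, 1 and 1 cells and lies below each control value (exact permutation p = 0.00794, the smallest these tumors allow, adjusted p = 0.0159 over 2 comparisons). With the cells holding a Cd8a or Cd8b1 UMI left out, the difference was −1.59 percentage points (exact permutation, adjusted p = 0.214) in place of −3 points, and without the cells with 3 or more UMIs of the 11 B genes it was −2.66 points (adjusted p = 0.0635, exact permutation). As a share of CD4 cluster plus Treg cells, the cluster was 34.3% ± 2.82 in control and 40.9% ± 15.8 in GC tumors (exact permutation p = 0.46), from 29.8% to 37.0% in control tumors and from 16.7% to 54.5% in GC tumors. Fewer cells of this kind and more of the others cannot be told apart in shares.

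The 10 GC cells are described only as 1 pool. They held 104305 UMIs, of which 62987 came from the 6 cells of GC 3, and their median depth was 9792 UMIs. By the classes above, 4 were Cd4-only, 0 Cd8-only, 0 both, 3 neither and 3 had B-lineage UMIs through Ighm or Ighd. No UMI of the other 11 B genes was found in the pool, and 0 of 10 cells with a UMI allow a share of cells with such a UMI of up to 30%, for counting error only. A Cd8a or Cd8b1 UMI was present in 1 cell.

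Of 11 genes known for GC response, 6 were higher in this pool than in the pooled control cells with intervals apart, 1 was lower and 4 overlapped. Over the 3674 genes with at least 0.5 UMIs per 10000 over both pools, 264 (7.19%) were higher with intervals apart and 277 (7.54%) lower. Of the 11, 6 passed that minimum, with 4 higher and 1 lower. Fkbp5, a co-chaperone of the GC receptor, was at 3.07 UMIs per 10000 (exact Poisson 95% interval 2.10 to 4.33) against 0.672 (0.563 to 0.796). Tsc22d3, which encodes the mediator GILZ, was at 3.93 (2.82 to 5.33) against 1.84 (1.66 to 2.04). Ddit4 was at 2.11 against 0.445, Dusp1 at 5.46 against 3.03, Klf9 at 0.959 against 0.283 (10 UMIs in 3 cells) and Zbtb16 at 0.671 against 0.157 (7 UMIs in 2 cells). The intervals of Per1, Sgk1, Mt1 and Mt2 overlapped. Nr3c1 was the lower one, at 6.81 (5.32 to 8.59) against 9.48 (9.06 to 9.92).

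Of the 17 naive and egress genes, 3 were higher in this pool, 5 lower and 9 overlapped. Of these, 15 passed the same minimum, the 3 and the 5 among them. Tcf7 was at 4.51 (3.31 to 5.99) against 5.07 (4.76 to 5.40) and had a UMI in all 10 cells, and Lef1 was at 5.94 (4.56 to 7.62) against 6.86 (6.50 to 7.23), with intervals that overlap. Lower values with intervals apart were found for S1pr1 (1.53 against 4.06), Ccr7 (0.192 against 1.39), Bach2 (4.99 against 9.75), Sidt1 (5.37 against 7.78) and Aff3 (1.34 against 7.32). Higher ones were found for Il7r (13.9 against 7.80), Klf3 (4.31 against 2.36) and Satb1 (19.5 against 15.0). Of the helper genes Icos was higher (14.7 against 7.76), and Cd4 was at 1.25 against 1.19. The pool held 0 Cd8-only cells and 0 UMIs of the 11 B genes, unlike the control pool, and the part of this make-up in the values was not tested. With 10 cells, most from 1 tumor, these are values of this pool and no test between treatments was made.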

How the data were processed

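The authors counted UMIs with Cell Ranger 7.1.0 on mm10 (GRCm38) with intronic reads included, kept cells with 1 hashtag, removed outliers beyond 3 MADs and clustered integrated data in Seurat 5.0.3 under R 4.3.1 (resolution 0.8), per the labels and methods. Droplets that mixed tumors were thereby excluded by the authors; no doublet caller was run here. The deposited expression values are the natural log of 1 plus UMIs per 10000. The deposited cell table gives UMI counts, hashtag counts, percent of mitochondrial UMIs, tumor and cluster. Back-transformation gave whole UMIs for 100% of 10330441 values above 0 (32285 genes, tolerance 0.01), summing to the listed total in all 4108 cells.

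Per tumor and class, linear means were compared as log2(mean + 0.5), in tumors with at least 10 cells of each cluster or 5 of each class, with limma 3.58.1 (trended, robust) in R 4.3.3 for Cd4-only against Cd8-only cells and no test between clusters. Tumor entered as a block, since both classes came from the same tumors. The edgeR 4.0.16 quasi-likelihood test and DESeq2 1.42.0 on summed UMIs were alternatives. Tumor shares were compared by exact two-sided permutation over 252 arrangements. Nothing but the hashtag marks the tumors as separate, so p-values measure the spread between them within 1 channel per group. The scripts were tested on simulated data. The text names the 10 largest differences per direction and members of gene lists; 1 gene that both rules reach is not reported here. The members and lists were chosen with earlier results of these data known.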

Additional observations from a re-analysis of the deposited data

Results flagged for a closer look

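Of 93 groups of 5 tumor values, nearly all from control tumors and the rest GC tumor shares, 7 held a value whose gap to the nearest other exceeded 0.71 of the range. By chance about 1 in 20 groups is flagged. In control 5, Bank1 was 4.0 higher on the log2 scale in the CD4 cluster than in CD8 1, against 1.35 to 2.00 in the other tumors. The same tumor held 25.7 UMIs per 10000 of the B-lineage list (others 3.49 to 9.82), 18.7 of the myeloid list (4.91 to 6.92) and 35.5 of the pan T list (48.7 to 53.2). In control 3, the difference of Cd4-only minus Cd8-only cells was −1.88 for Ly6c2 (others −4.88 to −4.34) and 0.11 for Ccl5 (−3.03 to −2.45), and the cell cycle list summed to 0.97 UMIs per 10000 (0.466 to 0.593).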

How the results depend on the processing

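The 437 genes past the size limit against Tregs became 229 when deposited log values were averaged, an alternative added after the data were seen, and the 125 against CD8 1 became 214 with a pseudocount of 0.1 and 66 with the deposited log values. The 226 genes called between Cd4-only and Cd8-only cells became 69 after thinning to 2000 UMIs, also added later, 312 by edgeR and 224 by DESeq2, and 61 to 220 with 1 tumor left out. Without the replicate block, 245 were called, 209 of them shared with the blocked fit. None of 597 recomputed values of 40 genes in that test changed sign, and 80 lost their call. The treatment difference in the cluster share was −1.59 points without cells holding a Cd8a or Cd8b1 UMI, −3.47 without cells of the 13 B genes and −2.66 without cells of the 11 B genes. The share of CD4 cluster plus Treg cells turned to −3.55 points without cells of the 13 B genes. Against Tregs, Bank1 turned to −0.03 under both ways of leaving out B-lineage cells, and over Cd4-only cells Ctsw turned to −0.32 and Ebf1 to −0.01. Against CD8 1, Ebf1 turned to −0.01 under both ways and Bank1 to −0.00 with the 11 genes, and over Cd8-only cells Cd4 turned to −0.41, Cd74 to −0.29 and Ebf1 to −0.03. The alternatives on B-lineage and CD8 cells leave out the cells that hold these genes; other causes were not tested. Depth limits the coreceptors: after thinning, the share of cells with a Cd4 UMI was 18.2% in place of 34.4%, and with a Cd8a or Cd8b1 UMI 14.2% in place of 24.5%.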
